A study of Mus musculus with 3 samples.

Results

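The genes described here are the ligands and receptors of the vascular endothelial growth factor (VEGF) system: the ligands Vegfa, Vegfb, Vegfc and Pgf, the receptor tyrosine kinases Flt1, Kdr and Flt4, and the neuropilin co-receptors Nrp1 and Nrp2. They were chosen by gene symbol, and each of the 9 had 1 probe set with a single symbol, so 9 of the 19938 named genes on the array are members. Expression came from 3 Affymetrix arrays, all of 1 group: sorted ureteric tip cells of Hoxb7-GFP mouse embryos of the CD-1 strain at 10.5 days post coitum (Theiler stage 18, sex given as unknown). All 3 samples carried the transgene Tg(Hoxb7-EGFP)33Cos, a green fluorescent protein gene under the control of Hoxb7 sequence, active in nephric duct and ureteric bud, and each was 1 bud, not pooled, that was dissociated with trypsin and sorted for fluorescence. The design therefore has no treated or mutant group and no comparison between conditions. With 3 arrays, every level has limited precision.

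The collecting system of the kidney forms from the ureteric bud, an epithelial branch of the nephric duct. VEGF-A is secreted by many epithelia and binds the receptors FLT1 and KDR, which are best known from endothelial cells, where KDR carries most of the growth and survival signal and FLT1 largely holds the ligand. PlGF and VEGF-B bind FLT1, VEGF-C binds FLT4, the receptor of lymphatic endothelium, and can bind KDR. Neuropilins bind some VEGF forms as co-receptors and also serve class 3 semaphorins, which signal through plexins.

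Levels are given on the log2 scale of the deposited values, where 1 unit is a doubling. Background was read on each array from 1035 probe sets of olfactory receptors, which bud cells are assumed not to use: the 95th percentile of their signals lay at 5.40, 5.45 and 5.41 log2 on arrays 1, 2 and 3. A gene was called above background when limma's moderated one-sided test of its mean minus these levels gave a Benjamini-Hochberg adjusted p under 0.05 over all 19938 genes. By this rule 53.0% of all named genes were called, and 5 of the 9 VEGF genes (55.6%), a share close to that of all genes. The 14 markers of bud epithelium used to check the labelled tissue, among them Ret, Gfra1, Gata3 and Calb1, were all above background. Many values are tied between arrays: 10311 genes (51.7%) held the same value on all 3 arrays and 5717 (28.7%) held the same value on 2 of them, within 1e-06 log2. None of the VEGF genes was identical on all 3 arrays, 7 were tied on 2 arrays, and only Kdr and Nrp2 had 3 different values. A tie comes with the deposited table and does not show that the buds agreed, so an SD that rests on a tie is given for completeness. The p-values of tied genes rest on the same values.

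Of the ligands, Vegfa and Vegfb were above background and Vegfc and Pgf were not. Vegfa (probe set 10451198), the main ligand of KDR and FLT1, had a signal of 7.31, 6.88 and 6.88 log2 on arrays 1, 2 and 3. Array 1 was the higher one, by 0.42 log2 or 1.34-fold, and arrays 2 and 3 were tied. The mean was 7.03 ± 0.25 log2 (SD, n = 3), 1.61 above the background levels (limma, adjusted p = 0.000294). Vegfb (probe set 10465559), a ligand of FLT1, had 6.99, 6.96 and 6.99 log2, a spread of 0.03. Its mean of 6.98 ± 0.02 log2 (SD, n = 3) was 1.56 above the levels (limma, adjusted p = 4.7e-06). The deposited values of both ligands thus lay over the level on each of the 3 arrays, but 2 of the 3 values of each gene were tied. With keratin-associated protein and beta-defensin genes in place of olfactory receptors neither was called (limma, adjusted p = 0.437 for Vegfa and 0.0964 for Vegfb).

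Vegfc (probe set 10571788), known for lymphatic vessel growth, had 5.27, 5.27 and 5.33 log2 and lay below the background level of every array, by 0.13 on average. Pgf (probe set 10401607), the placental growth factor, had 4.71, 4.88 and 4.88 log2 and lay 0.60 below. Both gave an adjusted p of 1 (limma), and such a value shows only that the signal was not above the background level used. Vegfd, the remaining ligand of FLT4, was at 5.21 log2 on all 3 arrays and was not above background either. Against lower levels Vegfc was called, at the 90th percentile (limma, adjusted p = 0.000493) and with vomeronasal receptors (0.000196). Pgf was called with neither.

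**Figure D1:**
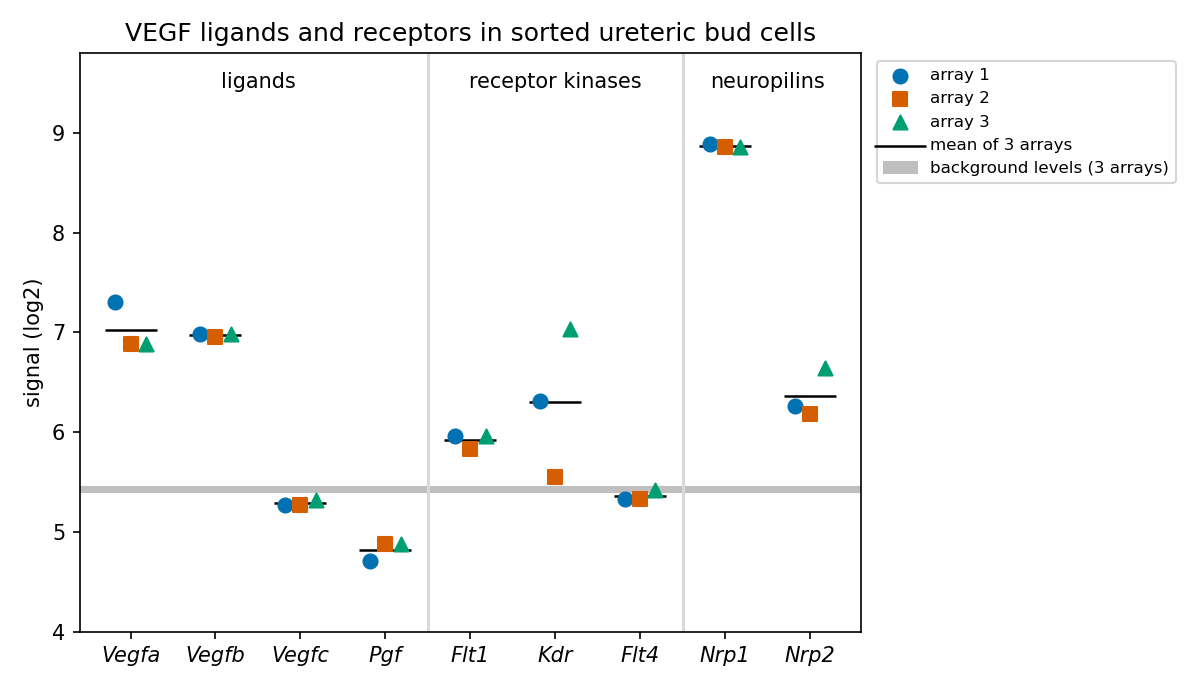
Signal (log2, vertical axis) of the 9 VEGF genes on each of the 3 arrays (points), with the mean (black bar) and the range of the 3 background levels (grey band). Nrp1, Vegfa, Vegfb, Nrp2 and Flt1 lie above the band on all arrays, Kdr spreads from 5.55 to 7.04 log2, and Vegfc and Pgf lie below the band.

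Of the receptor kinases, Flt1 was above background, Kdr lay above the level on each array without passing the test, and Flt4 lay at the level. Kdr (probe set 10530692) had a signal of 6.32, 5.55 and 7.04 log2 on arrays 1, 2 and 3. These values stood 0.92, 0.10 and 1.63 above the array's own background level, so bud 3 was high, bud 2 was barely over background and bud 1 lay between them. Array 3 exceeded array 2 by 1.49 log2, or 2.81-fold. The mean of 6.30 ± 0.74 log2 (SD, n = 3) was 0.88 above the levels and missed the threshold (limma, adjusted p = 0.0548). The call turned with the settings: Kdr passed under 7 of 13 alternatives, among them the 90th percentile (limma, adjusted p = 0.0325), omission of the lowest 25% of genes (0.0465) and omission of array 2 (0.0405). Its adjusted p ran from 2.58e-34 to 1 over the alternatives that use limma. It also passed without array 1 and without array 3. In the fit with vomeronasal receptors and those without array 1 or array 3 limma gave every gene a pooled SD of 0.205, 0.183 or 0.18 log2, below the SD of 0.745 that Kdr itself showed, so those 3 passes do not use its own spread.

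Flt1 (probe set 10535807) had 5.97, 5.83 and 5.97 log2, with array 2 the lower one by 0.13. Its mean of 5.92 ± 0.08 log2 (SD, n = 3) was 0.50 above the levels (limma, adjusted p = 0.00087). It was not above the 99th percentile of olfactory receptors, where its mean lay 0.14 below. The array has 1 probe set for the gene, so the soluble and the membrane form of FLT1 were not told apart. Flt4 (probe set 10375578) had 5.33, 5.33 and 5.42 log2, 0.06 below the levels on average (limma, adjusted p of 1), with only array 3 at or over its level, by 0.01. Of the 3 markers of lymphatic endothelium, the defining factor Prox1 was at 4.89, 4.89 and 4.90 log2 and not above background, while Lyve1, at 5.69 log2 on all 3 arrays, and Pdpn, at 7.71, 7.44 and 6.76, were above it.

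Both neuropilins were above background. Nrp1 (probe set 10576639), the co-receptor of VEGF-A and SEMA3A, had 8.89, 8.86 and 8.86 log2, a spread of 0.04 between arrays. Its mean of 8.87 ± 0.02 log2 (SD, n = 3) stood 3.45 above the levels (limma, adjusted p = 9.01e-07), and it was called under all 13 alternative settings. Nrp2 (probe set 10346843), the co-receptor of VEGF-C and SEMA3F, had 6.26, 6.18 and 6.64 log2, highest on array 3 and lowest on array 2. Its mean of 6.36 ± 0.25 log2 (SD, n = 3) was 0.94 above the levels (limma, adjusted p = 0.00171). Signals of different probe sets are not set against each other, so no order of abundance is given for the 9 genes.

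The calls depended on how strict the background level was. At the 90th percentile 8 VEGF genes were called (63.7% of all named genes), and at the 99th 4 (35.3%), without Flt1. With vomeronasal receptors as the unused genes 8 were called (65.1% of all), and with keratin-associated protein and beta-defensin genes 1, Nrp1 (21.1%). Pgf was called under none of the 13 alternatives. Quantile normalization (52.8% of all genes called), the brightest probe set (53.4%), an SD floor of 0.102 log2 (50.4%) and omission of genes identical on all arrays (63.1%) each left 5 VEGF genes called. Each VEGF gene had 1 probe set, so the brightest probe set could not change its values and is no check of them. The count was 6, with Kdr, when the lowest 25% of genes were left out (71.0% of the rest called) and when a gene had only to exceed the level on all 3 arrays (54.0%). It was also 6 without array 1, 2 or 3, where 48.5%, 52.8% and 48.8% of all genes were called.

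**Figure D2:**
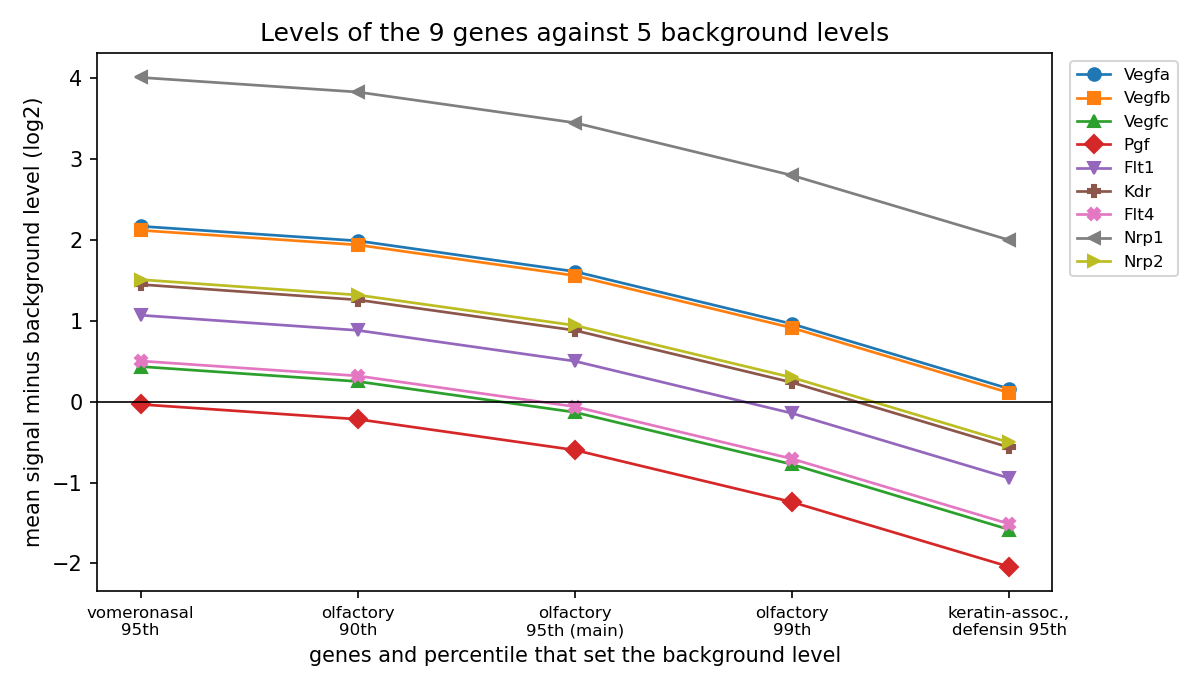
Mean signal of each VEGF gene minus the background level (log2, vertical axis) under 5 choices of the genes and the percentile that set the level, from the most lenient at the left to the strictest at the right. Nrp1 stays above 0 throughout, Pgf stays below 0 throughout, and Vegfc, Flt4, Flt1, Kdr and Nrp2 cross it.

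The difference between the buds was larger for Kdr than for the other VEGF genes. Its highest and lowest array were 1.49 log2 apart, at the 99.1st percentile of all named genes, and 473 of 19938 genes (2.37%) differed by over 1 log2. The other 8 VEGF genes differed by at most 0.46 log2, the value of Nrp2, which lay at the 90.7th percentile, and Vegfa at the 89.4th. All 9 rank above the 51.7% of named genes that were identical on all arrays, which raises these percentiles. Array 2 was the lowest, with no tie, for Vegfb, Flt1, Kdr and Nrp2, which is 4 of 9 against 10.6% of all named genes and 21.9% of the 9627 genes that, like the VEGF genes, were not identical on all arrays. Array 3 was the highest, with no tie, for Vegfc, Kdr, Flt4 and Nrp2, again 4 of 9, against 11.5% of all named genes and 23.9% of those not identical on all arrays. Kdr and Nrp2 had both features, as did 3% of all named genes. That order needs 3 different values, and among the 3910 genes that had them the share was 15.3%. Some of these differences were small. For Vegfc and Flt4, neither above background, array 3 was higher by only 0.06 and 0.09 log2. For Vegfb array 2 was lower by only 0.03. Each array is 1 bud, so differences between arrays have no replicate check and were not tested.

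**Figure D3:**
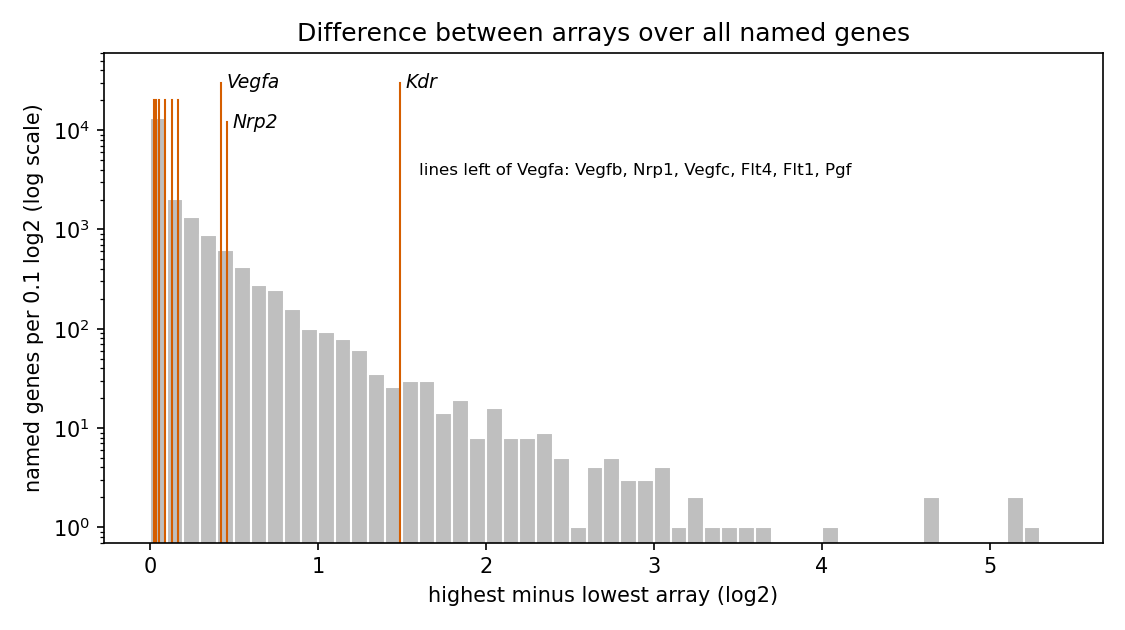
Number of named genes (log axis) by the difference between their highest and lowest array (log2, bins of 0.1), with the 9 VEGF genes as orange lines whose height has no meaning. Kdr, at 1.49 log2, lies far out in the tail, Vegfa and Nrp2 lie at 0.42 and 0.46, and the other 6 lie at 0.165 or less.

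Endothelial markers other than the VEGF receptors followed the same order of arrays as Kdr in most cases. Of the 22 markers, 17 were above background (77.3%, against 53.0% of all named genes), and 16 had their lowest value on array 2 (10.6% of all named genes, 21.9% of those not identical on all arrays). Eng and Robo4, named here after their values were seen, were called at only 0.07 and 0.13 log2 above the levels. The SD floor left 15 called (68.2%, against 50.4% of all genes). Omission of identical genes left 14 of 19 (73.7%, against 63.1%). The share above background was below that of all genes at the 99th percentile, with 27.3% of the markers against 35.3%, and with keratin-associated protein and beta-defensin genes as background, with 4.55% against 21.1%. For 13 of the 22 (59.1%) array 2 was lowest and array 3 highest, as for Kdr and 3% of all named genes. Of the 16 markers with 3 different values these were 81.2%, against 15.3% of all genes with 3 different values. The marker list was chosen with earlier results of these data known, so these shares are a description and not a test. The median of the list was 6.25, 5.78 and 6.53 log2 on arrays 1, 2 and 3, and the summed linear signal was 2361, 1538 and 3347. The angiopoietin receptor Tek had 6.69, 5.67 and 7.34 log2, within a root mean square difference of 0.104 log2 of the Kdr profile once each gene was centred on its own mean. The cell adhesion gene Pecam1 had 6.32, 5.86 and 6.62 log2, and the sialomucin gene Emcn 8.37, 6.73 and 9.55. Cdh5, the cadherin of vascular junctions, had 8.22, 5.89 and 8.07 log2, low on array 2 but highest on array 1.

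Of the 22 markers 3 held 1 value on all 3 arrays, which cannot show whether they moved with Kdr. Esam, Sox17, Sox7, Cd34 and Adgrl4 were the 5 markers that did not pass the test. For Cd34 the values were 7.23, 5.22 and 8.31 log2, with array 2 under its background level, and the adjusted p was 0.0897 (limma). In bulk RNA of sorted cells, fewer cells of a type and less RNA per cell cannot be told apart, and the part of endothelial cells in the Kdr signal was not tested.

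**Figure D4:**
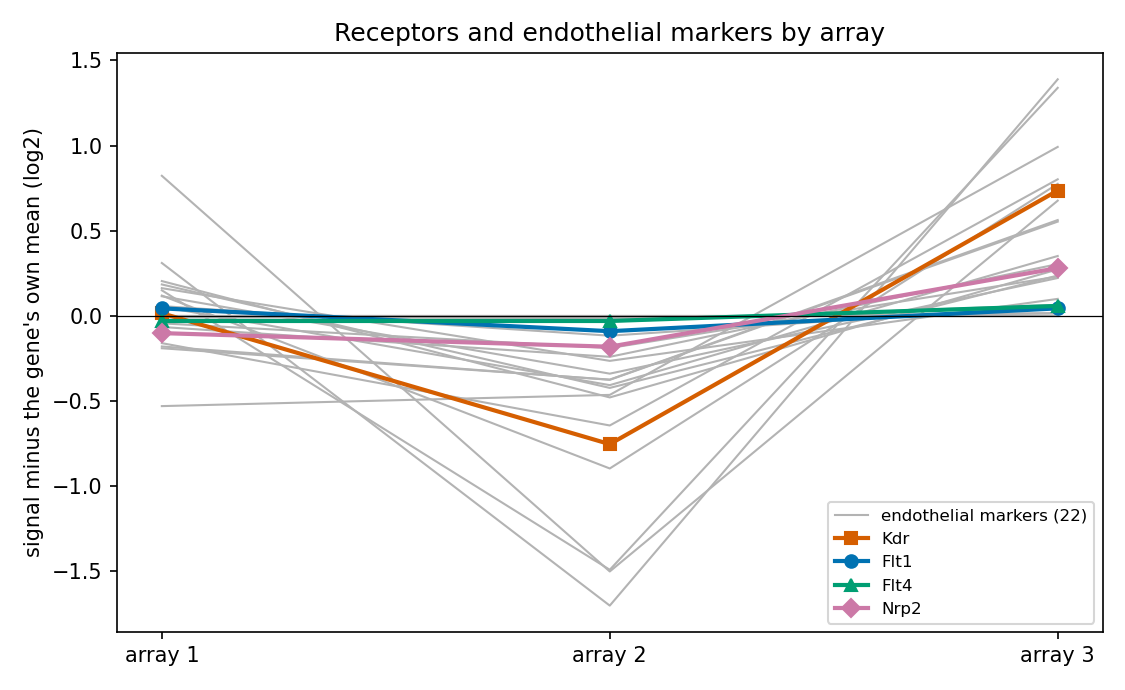
Signal minus the gene's own mean (log2, vertical axis) on arrays 1, 2 and 3 for Kdr, Flt1, Flt4 and Nrp2 (coloured lines) and the 22 endothelial markers (grey lines). Kdr dips on array 2 and peaks on array 3 with 13 of the markers, while Flt1 and Flt4 stay within 0.1 log2 of their means; the lines join arrays that have no order.

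Markers of other cell types differed in how they stood by array. Of the erythroid markers, 5 of 9 were above background (55.6%, against 53.0% of all named genes): Hba-x, Alas2, Slc4a1, Tal1 and Epor. Hbb-y, Hbb-bh1, Gata1 and Klf1 were not. Epor and Alas2, each with 1 value on all 3 arrays, lay only 0.09 and 0.22 log2 above the levels. Hbb-y lay 2.20 above them on average, with 0.02 on array 2, and missed the threshold (limma, adjusted p = 0.053). The embryonic globin gene Hba-x had 7.98, 5.87 and 7.39 log2 and Hbb-y 8.86, 5.48 and 8.52, so both were lowest on array 2, as Kdr was, but highest on array 1. The summed linear signal of the erythroid list was 1087, 414.5 and 865.3 on arrays 1, 2 and 3. Leukocyte and macrophage markers were above background in 3 of 12 (25%): Cx3cr1, Cd68 and C1qc, the last by only 0.22 log2. Ptprc, Csf1r and Adgre1 each held 1 value on all 3 arrays, below the level. The summed signal of this list was 471.8, 444.8 and 454.5. Mesenchyme and stroma markers were above in 4 of 12 (33.3%): Cited1, Col1a1, Col3a1 and Wt1, the last by only 0.18 log2. Six2, Gdnf, Eya1 and Osr1 were not. The mesenchyme and stroma sum was 564.4, 569.2 and 544.7. Pericyte and smooth muscle markers were above in 1 of 6 (16.7%), Cspg4, without Acta2, Rgs5, Myh11, Tagln and Des. Their sum was 226.2, 217.6 and 218.6. The bud markers ran another way: 9 of 14 were highest on array 1, with no tie, and none was highest on array 3. Array 1 was highest, with no tie, for 12.3% of all named genes and 25.4% of those not identical on all arrays. It was also highest for Vegfa and, by only 0.04 log2, for Nrp1. The summed signal of the bud markers was 8542, 7105 and 6802. The part of these cell types in the levels of the VEGF genes was not tested.

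The 5 named genes outside the VEGF family whose profile over the 3 arrays lay nearest to that of Kdr were Lcp1, Lmo2, Tmem267, Selenop and S100a16. Their root mean square differences from the centred Kdr profile were 0.0307, 0.0439, 0.0654, 0.067 and 0.0782 log2. Lmo2, at 7.41, 6.75 and 8.19 log2, and S100a16, at 8.01, 7.36 and 8.66, were above background (limma, adjusted p of 0.004 and 0.00129). Lcp1, Tmem267 and Selenop, with means of 5.69, 5.62 and 5.81 log2, did not pass the test. With 3 arrays a near profile says little, and this likeness is a description of these 3 buds. Kdr was the only VEGF gene with a difference of over 1 log2, so no nearest genes were sought for the others.

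Of 63 measured other genes of the VEGF pathway, 44 were above background (69.8%, against 53.0% of all named genes). With keratin-associated protein and beta-defensin genes as background the share was 17.5%, against 21.1% of all genes, and with identical genes left out it was 69.2%, against 63.1%. Among genes that release or bind the ligands, 6 of 10 were above it. Ccbe1, whose product helps to activate VEGF-C, was among them, but at 5.50 log2 on all 3 arrays, only 0.08 above the levels. Adamts1, whose product can bind VEGF-A, was also among them, at 6.60 log2 on all 3 arrays. The protease gene Adamts3, which cuts VEGF-C, had 4.48, 4.52 and 4.50 log2 and was not above background, nor were Vegfd, Plau and Mmp9. Of the signalling genes inside the cell 17 of 22 were above background. Plcg1, which encodes the phospholipase that KDR activates, was at 6.94 log2 and the adaptor gene Shb at 5.96. The endothelial nitric oxide synthase gene Nos3 was at 5.28 log2 and not above background, and neither were Sh2d2a, Shc2, Prkca and Hspb1. Apart from Adamts3, Plau and Sh2d2a, the genes named from these lists held 1 value on all 3 arrays.

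Class 3 semaphorins and plexins, which share the neuropilins, were above background in 8 of 12 (66.7%, against 53.0% of all named genes). The NRP1 ligand gene Sema3a had 8.07, 8.07 and 7.87 log2, and Sema3c was at 8.10 on all 3 arrays. Sema3b, Sema3d, Sema3e and Plxna4 were not above background, though Sema3d had 7.05 log2 on array 1 against 5.83 on both other arrays. Plxnd1, the plexin of endothelial cells, named here after its values were seen, had 6.54, 5.60 and 6.99 log2 and so had the same order of arrays as Kdr. In the whole pathway list that order was found for 2 of 63 genes (3.17%), the other being Dll4 at 5.21, 5.17 and 5.24 log2, which was not above background.

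Among genes that sense oxygen upstream of Vegfa, 6 of 9 were above background (66.7%, against 53.0% of all named genes). Hif1a, the oxygen-regulated subunit of the hypoxia-inducible factor, was at 8.69 log2 on all 3 arrays, and its partner Arnt had 7.24, 6.93 and 6.77. Vhl, which marks the factor for destruction, was at 6.57 log2 on all 3 arrays. Of the 9 genes 6 were identical on all 3 arrays. As with Vegfa, array 1 was the highest, with no tie, for 2 of them. This held for 12.3% of all named genes and 25.4% of those not identical on all arrays. The 2 were Arnt and the prolyl hydroxylase gene Egln1, named here after its values were seen, at 8.49, 7.74 and 7.89 log2. Epas1, Egln3 and Hif3a were not above background, at 5.47, 4.76 and 5.20 log2. Receptor partners and Notch feedback genes were above background in 7 of 10 (70%). They included the endothelial phosphatase gene Ptprb at 5.69, 5.69 and 5.93 log2 and the phosphatase gene Ptpn11 at 7.63, 7.63 and 7.54. Also among them were the neuropilin-binding adaptor gene Gipc1 at 6.73, 6.65 and 6.18 and the integrin gene Itgav at 7.51, 7.51 and 7.40. Itgb3, Dll4 and Hey2 were not above background.

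The promoters of the 9 genes are shown where the receptors and the main ligand can be set beside each other. The search covered the 250 bases before each listed RefSeq start (GRCm38.p6), on both strands. A gene can have more than 1 such start, and the Kdr, Flt1 and Nrp1 windows lie inside the RefSeq extent of their genes. The motifs were the GC box GGGCGG, the ETS motif AGGAAG and the core of the hypoxia response element ACGTG, all chosen with the sequences in view. All 9 VEGF genes held a GC box, as did 35.4% of the 27025 genes with a window, in 10 of their 11 windows against 32.7% of all 32851 windows. The ETS motif was found in Flt1 and Nrp1 only, 2 of 9, as against 32.3% of all genes, and in 8 of the 10 endothelial markers that had a window, of which 3 held a GC box. No ETS match lay in the Kdr window. The only ACGTG lay 211 bases before the downstream start of Vegfa, so that 1 of the 9 genes held it. It was found in 18.5% of all genes and 1 of the 10 endothelial markers. The GC boxes and the ETS matches of these genes did not overlap. The stretch of Vegfa is the whole window of its upstream start, chr17:46032378-46032627 on the minus strand, and capitals mark the GC boxes. The other stretches are 30 bases each, at chr5:75978479-75978508 (minus strand) for Kdr, chr5:147726043-147726072 (minus strand) for Flt1 and chr8:128358967-128358996 (plus strand) for Nrp1, and capitals mark GC boxes on either strand and ETS motifs.
Vegfa: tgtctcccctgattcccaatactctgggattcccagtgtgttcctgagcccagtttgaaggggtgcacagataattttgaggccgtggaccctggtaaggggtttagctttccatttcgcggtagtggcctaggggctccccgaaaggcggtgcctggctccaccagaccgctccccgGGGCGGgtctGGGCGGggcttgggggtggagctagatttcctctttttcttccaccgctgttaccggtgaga
Kdr: taatgaccCCGCCCccattcgctagtgtgt
Flt1: gccggggtAGGAAGtgggctggggaaaggt
Nrp1: cggggaggGGGCGGgAGGAAGggagggaag
A match is a run of letters and not a bound site, and no match says only that these letters are not in this window. The Vegfa stretch ends on the base before its upstream RefSeq start and holds 2 GC boxes, 72 and 62 bases before that start. The windows of the 9 genes were rich in G and C, at 59.2% to 76.4%, against a median of 52.4% over all windows, and the GC box is itself made of these letters.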

How the data were processed

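The authors deposited 1 log2 signal per probe set and array for 3 arrays, 1 ureteric bud each. The base of 2 was inferred from the values. Per the submitters' processing notes, Affymetrix Expression Console produced them. Its version, the probe background correction, the normalization, slides and scan dates: not given in the sources used here. Of 35557 probe sets, 21789 had 1 gene symbol in the platform annotation, 1621 several and 12147 none listed; those with 1 symbol were averaged per gene on the log2 scale, giving 19938 genes. All 9 members matched a RefSeq gene, and 150 of 155 list genes were measured. limma 3.58.1 in R 4.3.3 fitted each gene's value minus its array's background level (95th percentile of olfactory receptors), with prior degrees of freedom of 1.71. For genes tied on all arrays the test has no spread of their own to use. The labels give no separate litters, so p-values measure only the spread between these samples. The members, the gene lists and the settings were chosen with earlier results of these data known. Named genes were all members, the first 4 measured genes of each list, all genes of a list above background, or all not above it, where these were 5 or fewer, and the 5 nearest profiles of a member with a difference over 1 log2. Alternatives were the 90th and 99th percentile, vomeronasal receptors or keratin-associated protein and beta-defensin genes in place of olfactory receptors, quantile normalization, the brightest probe set, omission of the lowest 25% or of identical genes, an SD floor, a rule without a model and omission of each array.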

Additional observations from a re-analysis of the deposited data

How the results depend on the processing

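The count of VEGF genes above background was 5 of 9 in the main setting, 8 at the 90th percentile, also 8 with vomeronasal receptors, and 1 with keratin-associated protein and beta-defensin genes (here the strict set). It was 4 to 6 under the other 10 alternatives, and 6 without any 1 array. Among these, the brightest probe set could not change the values of the VEGF genes, which had 1 probe set each. Endothelial markers gave 17 of 22, but 1 with the strict set (4.55%, against 21.1% of all genes) and 6 at the 99th percentile (27.3% against 35.3%), where their share no longer exceeded that of all genes (16 to 19 without 1 array). Other pathway genes gave 44 of 63, but 11 with the strict set (17.5% against 21.1%, so below all genes) and 28 at the 99th percentile (44.4% against 35.3%), and 18 of 26 with identical genes left out (69.2% against 63.1%), where fewer genes entered (38 to 46 without 1 array). Relative to the background level, Flt1 was at −0.14 log2 at the 99th percentile and −0.94 with the strict set, where Kdr was at −0.56 and Nrp2 at −0.50. Vegfa and Vegfb were at 0.161 and 0.111 log2 with the strict set and were not called. At the 90th percentile Vegfc was at 0.25 and Flt4 at 0.32 log2, and with vomeronasal receptors at 0.435 and 0.504. These shifts follow from the level itself, which ran from 4.78 to 6.91 log2 over the choices. With vomeronasal receptors and without array 1 or 3 limma used a pooled SD for every gene. The spread of Vegfb between arrays was 0.0576 log2 with quantile normalization, against 0.0269. No paired analysis was possible because there is 1 group.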
